A study of Mus musculus with 35 samples.

Results

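Interferon-stimulated genes were followed as a group of 43 listed symbols across sorted immune cells of the mouse. Each symbol was read through 1 probe set, the one with the highest mean over the 35 arrays. Values were obtained for 41 of the 43 genes, out of 18193 genes measured in all. Isg15, which encodes a ubiquitin-like modifier, has a probe set that the annotation also assigns to another gene, and Ifi44 has no probe set in the annotation used, so neither is analysed here. All 41 passed the filter on low values in both models used below. The probe sets of Gbp2 and Ifi35 carry the suffixes with which the array's maker marks probes that may also read related transcripts.

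All cells came from male C57BL/6J mice aged 8 weeks that were kept under specific pathogen-free conditions, with no treatment of the animals named in the labels. Each sorted population was hybridised to an Affymetrix Mouse430_2 array. From bone marrow there were 2 arrays of inflammatory monocytes, 2 of SatM (atypical monocytes with a segregated nucleus, tied to fibrosis in the labels), 2 of the common monocyte progenitor cMoP and 2 of SMP, which the labels give as the precursor of SatM. A further 2 arrays of cMoP and 2 of SMP carry WT in their titles, and the labels do not say what else sets them apart from the numbered arrays. The granulocyte and monocyte progenitor (GMP) and the progenitor of monocytes, macrophages and dendritic cells (MDP) have 1 array each. The spleen gave 2 arrays each of neutrophils, eosinophils and basophils. A tissue panel of 15 arrays adds SatM of spleen, bone marrow, blood and lung, cells negative for Msr1 and Ceacam1 of spleen, bone marrow and blood, other Ly6C-negative cells of spleen and blood, cells dull for Msr1 and Ceacam1 of bone marrow and lung, M2-like macrophages of spleen and bone marrow, and 2 arrays of lung macrophages. The lung arrays carry BAL in their titles, and the 2 lung macrophage arrays differ in title, one marked as F480 positive. No source states whether the arrays of a group came from separate mice, so the p-values measure only the spread between these arrays.

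Type I interferons act through the receptor of Ifnar1 and Ifnar2, whose kinases Jak1 and Tyk2 activate transcription factors, Stat2 and Irf9 among them, that bind the interferon-stimulated response element in the promoters of their targets. The products of these targets restrict viruses at many steps, and several of them also sense nucleic acids or limit the response itself. Monocytes and neutrophils are known to keep a tonic level of such transcripts without infection, and interferon-gamma induces part of the same genes through another promoter element, GAS.

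The deposited values are on a log scale whose base was taken as 2 from their range, 2.30 to 16.02, so a difference of 1 stands for a doubling. At least 50.2% and at most 52.6% of the probe sets of an array lay within 0.1 of the lowest value, called the floor here, and a difference from a group at the floor is a lower bound. Array medians ran from 2.31 to 2.39. Differences are those of limma fits over all genes, with standard errors (SE), on 12077 tested genes for the 20 arrays outside the panel and on 11734 for the panel. Calls needed a log2 difference of 1 or more and an adjusted p (Benjamini-Hochberg) under 0.05. Markers of other cell types stood high on some arrays. The SMP arrays held all 6 measured basophil and mast cell markers, with a summed log2 level of 16.2 to 16.5, against 16.5 to 16.6 in basophils and 7.18 to 7.99 in cMoP, where Fcer1a, Ms4a2, Cpa3 and Cd200r3 were at the floor. The Msr1-negative Ceacam1-negative cells, labelled as monocytes, held all 4 measured NK cell markers at 14.7 to 15.7, against 4.54 to 10.97 in SatM of the panel, where Ncr1 and Klrk1 were at the floor. In these cells Csf1r, which marks monocytes, read 9.49 in spleen, 3.67 in bone marrow and 2.30 in blood, against 13.2 to 14.3 in SatM of the panel. Ccr2, of the same marker list, read 10.27, 11.69 and 11.34 there, against 10.20, 11.43 and 11.29 in SatM of those tissues. The 5 measured classical monocyte markers summed to 10.9 to 11.7 in the negative cells and 14.0 to 14.8 in SatM.

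The promoters of the members were read first, since the response element is what links these genes in textbook accounts. RefSeq promoters (build GRCm38.p6, 250 bases before to 50 after the start) were found for 30 of the 41 genes. The core of the response element, GAAANNGAA on either strand, lay in the promoters of 17 of the 30 (56.7%), against 9.76% of the 27025 genes with a promoter in the table and 8.56% of its 32851 promoters. The GAS letters TTCNNNGAA, the same on both strands, lay in 6 of the 30 (20%), against 9.55% of genes and 8.30% of promoters. The promoters of 4 members are shown, with the core in capitals. They are the first 4 measured members with a promoter found, in a set order that began Ifit1, Rsad2, Isg15, Mx2, Usp18, Oasl2 and Cmpk2. Shown are Ifit1 (chr19:34640639-34640938, plus strand), Rsad2 (chr12:26456403-26456702, minus strand), Oasl2 (chr5:114896684-114896983, plus strand) and Cmpk2 (chr12:26468965-26469264, plus strand).
Ifit1: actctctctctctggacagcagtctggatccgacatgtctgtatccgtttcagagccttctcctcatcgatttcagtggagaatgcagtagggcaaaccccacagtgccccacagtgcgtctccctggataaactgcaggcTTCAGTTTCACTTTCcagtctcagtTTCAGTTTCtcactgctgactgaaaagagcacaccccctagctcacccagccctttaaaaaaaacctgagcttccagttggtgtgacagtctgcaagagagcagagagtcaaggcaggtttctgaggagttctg
Rsad2: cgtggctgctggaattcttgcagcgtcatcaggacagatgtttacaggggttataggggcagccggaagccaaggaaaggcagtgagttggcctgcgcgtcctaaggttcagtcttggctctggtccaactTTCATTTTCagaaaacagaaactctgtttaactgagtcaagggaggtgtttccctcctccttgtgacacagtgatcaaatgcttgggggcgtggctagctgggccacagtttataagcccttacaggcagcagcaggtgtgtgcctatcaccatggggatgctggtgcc
Oasl2: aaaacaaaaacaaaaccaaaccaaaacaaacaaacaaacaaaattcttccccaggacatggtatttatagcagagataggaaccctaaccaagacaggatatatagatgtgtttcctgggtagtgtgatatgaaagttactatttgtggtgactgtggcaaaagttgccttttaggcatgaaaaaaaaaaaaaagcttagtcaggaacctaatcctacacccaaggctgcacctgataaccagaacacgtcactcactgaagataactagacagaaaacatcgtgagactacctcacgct
Cmpk2: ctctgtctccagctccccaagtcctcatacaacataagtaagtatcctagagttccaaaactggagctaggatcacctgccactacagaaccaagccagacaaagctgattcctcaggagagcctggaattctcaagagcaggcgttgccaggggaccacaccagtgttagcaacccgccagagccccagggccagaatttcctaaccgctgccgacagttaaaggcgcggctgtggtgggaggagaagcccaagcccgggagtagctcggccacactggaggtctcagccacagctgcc
The Ifit1 window holds 3 matches, the first bases of which lie 109, 103 and 84 bases before the start, so that the first and the second overlap. Rsad2 has 1 match, 119 bases before its start, while Oasl2 and Cmpk2 have none in these windows. Rsad2 and Cmpk2 are neighbours on chromosome 12 and are read in opposite directions.

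Over the 35 arrays, the members were high in inflammatory monocytes and low in most progenitor arrays. The median over the 41 members was 9.56 and 9.62 in the 2 arrays of inflammatory monocytes. In other Ly6C-negative cells it was 9.05 in blood and 8.46 in spleen. In neutrophils it was 8.68 and 8.50. These 6 arrays shared the 8 highest places with 2 of lung, cells dull for Msr1 and Ceacam1 at 8.60 and SatM at 8.50. The numbered SatM of bone marrow stood in the middle, at 7.12 and 7.27, next to the numbered cMoP at 6.84 and 7.07. The numbered SMP lay lower, at 5.81 and 5.87. At the low end lay the WT-titled arrays of cMoP, at 4.13 and 4.57, and of SMP, at 4.41 and 5.18, with the dull cells of bone marrow at 4.86, GMP at 5.15 and MDP at 5.23. The median over all genes ran between 2.86 and 4.02 on these arrays and did not follow that order. Between 0 and 8 members were at the floor on an array, most of them in cMoP WT 2.

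**Figure D1:**
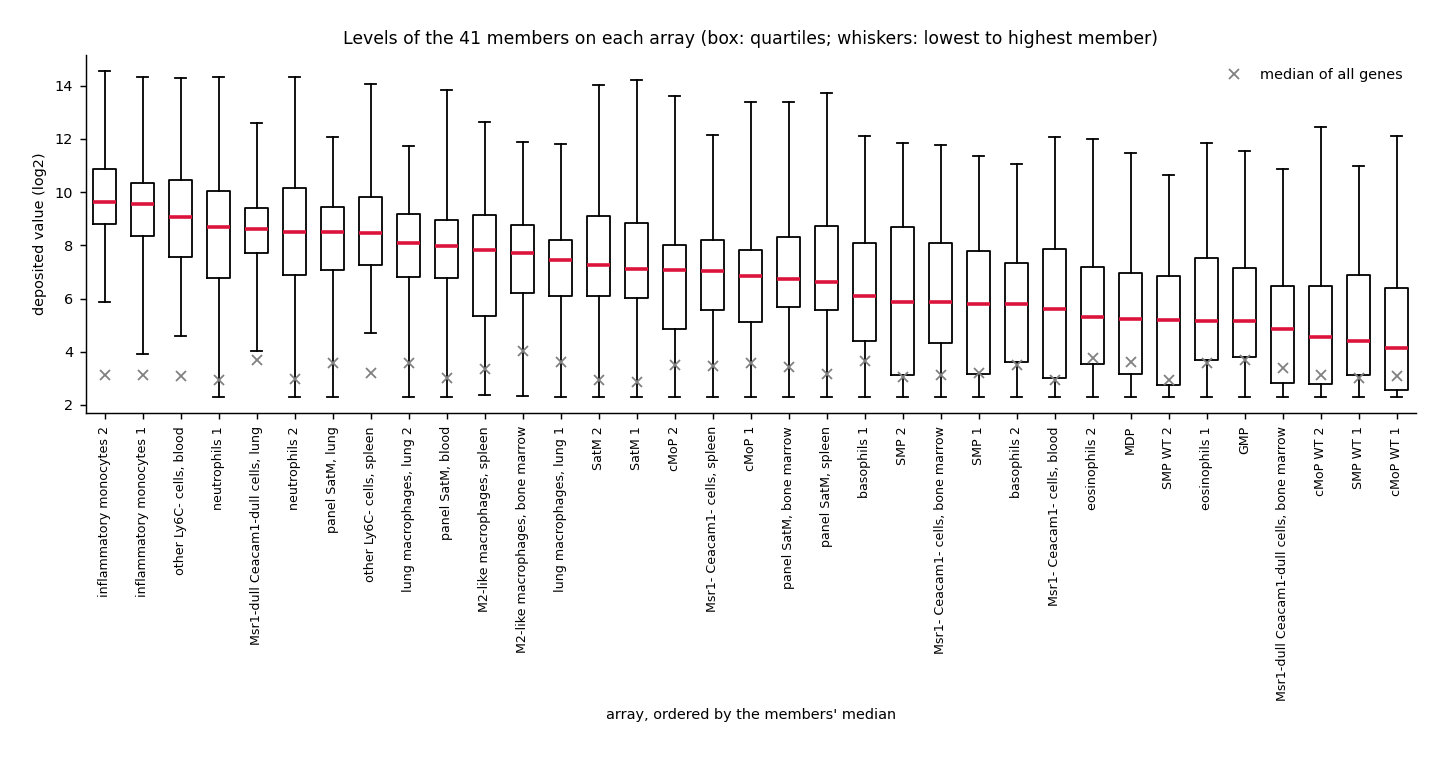
Deposited log2 values of the 41 members on each of the 35 arrays, ordered by the members' median (red line; box: quartiles; whiskers: lowest to highest member), with crosses for the median of all 18193 genes. The members' median falls from 9.62 in inflammatory monocytes 2 to 4.13 in cMoP WT 1, while the crosses stay between 2.86 and 4.02.

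Members differed in where they were highest. Inflammatory monocytes 2 held the highest value of 16 members, the neutrophil arrays of 5 and 6, and other Ly6C-negative cells of blood of 6. Neutrophils led for Rsad2, Oasl2, Oas2, Oas3, Isg20, Ddx58, Cmpk2, Rtp4, Samd9l, Slfn1 and Slfn4. Blood Ly6C-negative cells led for Mx1, Dhx58, Stat2, Ifi213, Xaf1 and Parp14. Single members peaked elsewhere, such as Bst2 (tetherin, which holds budding virus at the membrane) in lung macrophages at 9.67, Lgals3bp, a secreted scavenger receptor family protein, in M2-like macrophages of bone marrow at 10.80, Gbp3 in the Msr1-negative Ceacam1-negative cells of bone marrow at 10.10, Oasl1 in SatM of spleen at 7.65 and Herc6, a ligase of the ISG15 system, in SMP 2 at 8.69. The range also differed. Slfn4, of the Schlafen family, ran from 2.57 to 14.33 and Slfn1 from 2.30 to 13.13. Ifi35, by contrast, ran from 8.90 to 12.10, and Dtx3l, the ubiquitin ligase that pairs with Parp9, from 8.76 to 12.58. Mx2, a dynamin-like GTPase, was at the floor on 27 of 35 arrays and reached 5.89.

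**Figure D2:**
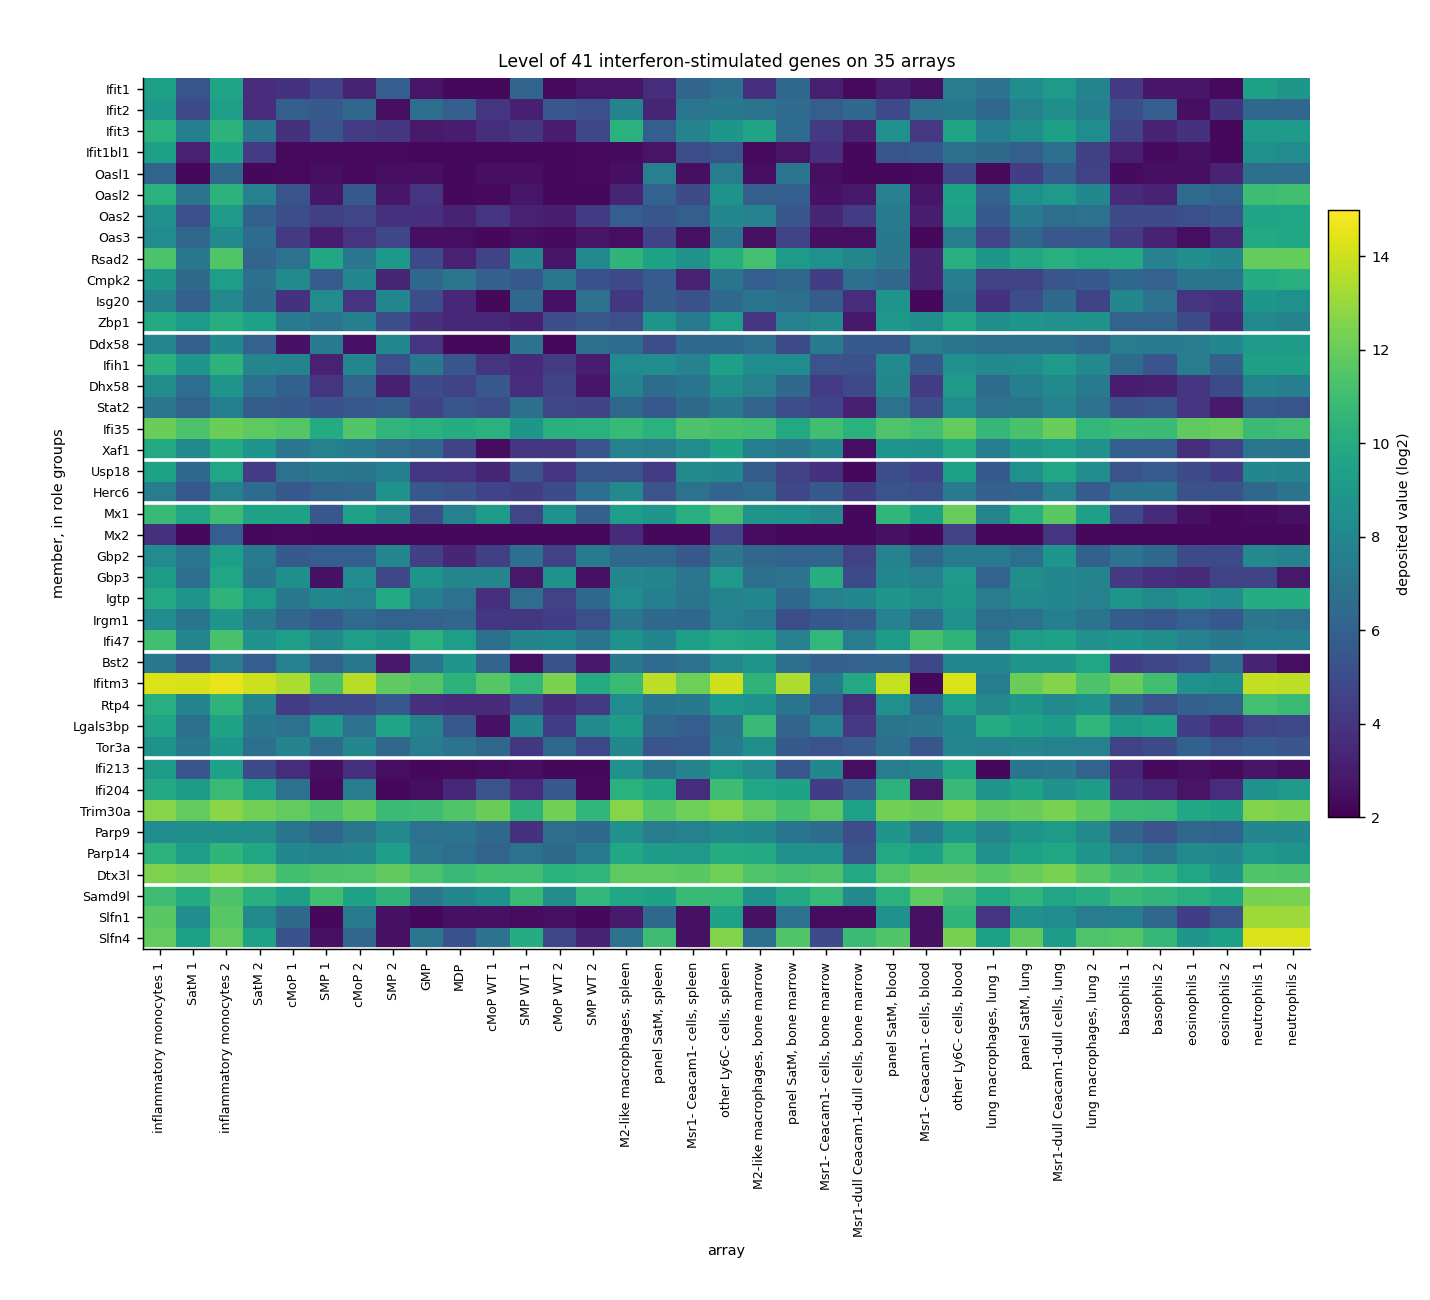
Deposited log2 values (colour) of the 41 members (rows, in groups by role, separated by white lines) on the 35 arrays (columns). Columns of inflammatory monocytes, neutrophils and other Ly6C-negative cells are bright over most rows, the columns of the progenitors are dark for Ifit1, Ifit3, Ifit1bl1, Oasl2 and Oas3, and Mx2 is dark on 27 arrays.

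In the bone marrow, inflammatory monocytes and SatM were compared to see how the members differ between these monocyte types. Of the 41 members, 22 were lower in SatM and 0 were higher, where 6.47% of all tested genes were called lower and 2.87% higher. The median member difference was -1.85, against -0.02 over all genes, and 40 of the 41 differences were below 0. In these bulk samples, fewer cells with a transcript and less transcript per cell cannot be told apart. The largest group to fall was that of RNA binding and nucleotide antivirals, with 10 of its 12 tested members lower. Among the RNA sensors and signalling genes 2 of 6 fell, among the GTPases 3 of 7, among the membrane and secreted proteins 3 of 5, among the DNA sensors and nuclear genes 1 of 6, and among the other genes, Samd9l and the Schlafen pair, 2 of 3. Usp18 fell and Herc6, the other measured gene of the ISG15 system, had a difference of -1.56.

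The Ifit proteins bind viral RNA lacking the host's cap marks. Ifit1 read 9.40 and 9.60 in inflammatory monocytes and 5.40 and 3.65 in SatM, with no overlap. Its difference was -4.97 (SE 0.92, adjusted p = 0.0038). Ifit1bl1, a gene of the same cluster, read 9.31 and 9.54 against 3.21 and 4.29, a difference of -5.68 (SE 0.32, adjusted p = 1.35e-07). Ifit2 (-4.75, SE 0.999, adjusted p = 0.0088) and Ifit3 (-2.95, SE 0.61, adjusted p = 0.0082) fell as well. Rsad2 encodes viperin, which makes a chain-terminating nucleotide. It read 11.30 and 11.47 in inflammatory monocytes and 7.25 and 6.24 in SatM, a difference of -4.64 (SE 0.78, adjusted p = 0.0019). Of the oligoadenylate synthetase family, some of whose proteins activate an RNase on meeting double-stranded RNA, all 4 listed genes were lower. Oasl1 was at the floor in both SatM arrays against 6.18 and 6.39, so it was at least 15.8-fold lower (adjusted p = 1.01e-07 for the fitted difference of -3.99). Oas2 fell by 3.20, Oasl2 by 3.03 and Oas3 by 1.81 on the log2 scale. The 2 of this role group that were not called were Cmpk2, a mitochondrial nucleotide kinase, at -2.42, and Zbp1, a sensor of left-handed nucleic acids, at -0.74.

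Usp18, which removes ISG15 from proteins and damps the receptor, read 9.56 and 9.66 in inflammatory monocytes against 6.39 and 4.31 in SatM (-4.26, SE 0.59, adjusted p = 0.00048). Ddx58, the RNA helicase RIG-I, read 7.93 and 8.07 against 6.01 and 6.11 (-1.94, SE 0.32, adjusted p = 0.0017). The related Dhx58 fell by 1.85 (adjusted p = 0.019), while Ifih1, the helicase MDA5, differed by -1.94 with an SE of 0.86 and was not called (adjusted p = 0.19). The DNA sensor family gene Ifi213 fell by 4.11 (SE 0.39, adjusted p = 1.98e-05). The GTPases that fell were Ifi47 (-2.88), Mx2 (at the floor in SatM, at least 6.10-fold lower) and Gbp3 (-2.501). Slfn1 (-3.36), Rtp4 (-2.45), Lgals3bp (-2.49), Tor3a (-1.71), Isg20 (-1.69) and Samd9l (-1.05) complete the called members.

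A few members read nearly alike in both monocytes. Ifitm3, which blocks virus fusion at the endosome, read 14.32 and 14.56 in inflammatory monocytes and 14.22 and 14.02 in SatM (-0.32, SE 0.35, adjusted p = 0.73). Parp9 differed by 0.03 and Dtx3l, its partner, by -0.33. Stat2, the member that belongs to the signal complex itself, differed by -1.40 (SE 0.59, adjusted p = 0.17), Mx1 by -1.26, Gbp2 by -1.51, Irgm1 by -1.30, Bst2 by -1.73 and Slfn4 by -2.46 (SE 1.67), all without a call. Leaving out any 1 of the 4 arrays left 11 to 14 of the 22 calls, and without the term for the WT-titled set 12 were left. Ddx58, Ifi213, Ifi47, Ifit1, Ifit1bl1, Oas2, Rsad2 and Rtp4 kept their call under every alternative run. SatM held 5 of 6 measured neutrophil markers at a summed level of 14.7 to 15.3, against 12.6 to 13.6 in inflammatory monocytes, with Cxcr2 at the floor in both. It held 3 of 5 eosinophil markers at 11.7 to 13.1, against 4.78 to 4.90, with Ccr3 and Il5ra at the floor. Of 7 measured markers of plasmacytoid dendritic cells, the main makers of type I interferon, 4 were above the floor in SatM and 3 in inflammatory monocytes. Siglech, Pacsin1 and Ly6d were at the floor in both. The summed level was 10.2 to 10.7 in SatM and 10.6 to 10.7 in inflammatory monocytes. Most of it was Tcf4, at 10.66 and 10.15 in SatM and 10.67 and 10.55 in inflammatory monocytes. The part of such transcripts in the differences was not tested.

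The same members split both ways between the progenitors. In SMP against cMoP, over 4 arrays each, 8 members were higher and 12 lower, a member median of -0.06 against -0.09 for all genes. That is 19.5% and 29.3% of the members, where 12.8% of all genes were called higher and 22.7% lower, so the shares lie near the background. Ddx58 was at 2.63, 2.63, 2.30 and 2.30 in cMoP, numbered arrays first, and at 7.32, 8.06, 6.93 and 6.69 in SMP. Every SMP array lay above every cMoP array (4.79, SE 0.23, adjusted p = 5.96e-09). Isg20, an exonuclease for RNA, was at 3.92, 3.98, 2.30 and 2.62 in cMoP and at 8.26, 8.03, 6.34 and 6.85 in SMP, again without overlap (4.16, SE 0.28, adjusted p = 1.31e-07). Lgals3bp rose by 3.51, Rsad2 by 3.40, Igtp by 1.94, Ifit1 by 1.93, Gbp2 by 1.83 and Samd9l by 1.76. For Igtp and Gbp2, which encode GTPases that attack vacuoles holding parasites, and for Ifit1, the arrays of SMP and cMoP overlapped.

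Gbp3 ran the other way, from 8.47, 8.32, 7.90 and 8.61 in cMoP to 2.64, 4.80, 2.85 and 2.61 in SMP (-5.10, SE 0.49, adjusted p = 3.25e-06). Its neighbour Gbp2 on chromosome 3 thus rose where Gbp3 fell. Ifi204, of the DNA sensor family, was at 6.89, 7.50, 5.32 and 5.52 in cMoP and at 2.34, 2.30, 3.64 and 2.34 in SMP (-3.65, SE 0.49, adjusted p = 5.78e-05). Mx1 was at 9.45, 9.44, 9.14 and 8.66 in cMoP and at 5.53, 8.38, 4.70 and 5.99 in SMP (-3.03, SE 0.53, adjusted p = 0.00050), with no overlap. Bst2 (-2.99), Cmpk2 (-2.33), Slfn1 (-2.33), Ifih1 (-2.24), Dhx58 (-2.21), Ifitm3 (-1.82), Tor3a (-1.72), Oasl2 (-1.26) and Trim30a (-1.23) were lower too. Ifih1 and Dhx58 therefore fell where Ddx58, the third helicase of that family, rose. Mx2 was at the floor in both progenitors, and Usp18 (1.04), Ifit3 (0.88), Stat2 (0.35), Irgm1 (-0.06) and Slfn4 (-1.21) were not called. In the WT-titled arrays alone 4 members were called lower. Of the 20 calls in both directions, 17 held with any 1 array left out. Only those of Ddx58, Gbp3, Isg20, Lgals3bp, Rsad2 and Samd9l held under every alternative run.

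Splenic basophils, whose markers the SMP arrays share, are set beside these values with no test. Basophils read 7.47 and 7.35 for Ddx58, 8.08 and 6.87 for Isg20, 9.15 and 9.48 for Lgals3bp, and 9.93 and 7.77 for Rsad2. Gbp3, low in SMP, was at 4.22 and 3.73 in basophils, and Ifi204 at 3.89 and 3.46. Other members of basophils lay apart from SMP. Slfn1 read 7.64 and 6.31 in basophils and 2.30 to 2.56 in SMP, Ifih1 6.59 and 5.45 against 3.04 to 5.17, and Cmpk2 6.35 and 6.06 against 3.41 to 5.81. Slfn4 read 11.51 and 10.66 in basophils and 2.57, 2.60, 10.04 and 3.29 in SMP. The part of the basophil and mast cell transcripts in the difference between SMP and cMoP was not tested.

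From cMoP to inflammatory monocytes, most members were higher. With the WT term of the model, 31 of the 41 were called higher and 0 lower, where 6.62% of all genes were higher and 8.25% lower. The member median was 2.92 against -0.01 over all genes. RNA binding and nucleotide antivirals were higher in 11 of 12, RNA sensors and signalling genes in 5 of 6, GTPases in 5 of 7 and DNA sensors in 4 of 6. Ifit1bl1 was at the floor in all 4 cMoP arrays and so at least 138-fold higher in inflammatory monocytes. Slfn4 (7.09, SE 1.56), Ifit3 (6.39, SE 0.57), Ifit1 (6.05, SE 0.86), Slfn1 (5.84, SE 0.90), Ifi213 (5.83, SE 0.37), Rtp4 (5.81, SE 0.40), Oasl2 (5.58, SE 0.63), Ddx58 (5.23, SE 0.30) and Rsad2 (4.91, SE 0.73) had the largest fitted rises beside it, with adjusted p from 1.97e-07 for Ddx58 to 0.0069 for Slfn4. Oas3 (4.27), Ifih1 (3.20), Gbp2 (3.32), Usp18 (2.92), Mx2 (2.60), Irgm1 (2.32) and Stat2 (1.97) rose too. Bst2 was not called at -0.07 (SE 0.78), nor were Ifitm3 at 1.004 (SE 0.33, adjusted p = 0.053) and Mx1 at 1.17. Neutrophil markers were above the floor for 5 of 6 in both cell types, at a summed level of 12.6 to 13.6 in inflammatory monocytes and 9.72 to 10.9 in cMoP, with Cxcr2 at the floor. The 6 stem and progenitor markers had a summed level of 13.7 to 14.3 in cMoP, against 6.81 to 7.19 in inflammatory monocytes. Mpo was the highest of them in cMoP, at 12.89 to 13.39. Kit read 2.72, 2.72, 5.43 and 3.26 in cMoP, numbered arrays first, and was at the floor in inflammatory monocytes. The part of these in the differences was not tested.

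SatM stood above SMP in 17 members and below it in 5, where 12.8% of all genes were higher and 14.0% lower. The member median was 1.14 against -0.03 over all genes. Ifi204 was at 9.12 and 9.22 in SatM and at 2.34, 2.30, 3.64 and 2.34 in SMP, with a fitted difference of 6.24 (SE 0.64, adjusted p = 8.89e-06). Slfn4 (5.83, SE 1.56), Slfn1 (4.81), Oasl2 (3.81), Ifih1 (3.50), Gbp3 (3.40), Dhx58 (2.97), Mx1 (2.94), Zbp1 (2.85) and Ifit3 (2.56) followed. Slfn4 overlapped, since SMP WT 1 read 10.04, above SatM at 9.36 and 9.46, while the other SMP arrays read 2.57, 2.60 and 3.29. Its difference was 6.71 without SMP WT 1, and its call was lost without either SatM array (adjusted p = 0.059 and 0.066) and with the compared groups fitted alone (adjusted p = 0.11). Those lower in SatM were Rsad2 (-3.13), Lgals3bp (-2.79), Usp18 (-2.38), Isg20 (-1.86) and Ddx58 (-1.49). Ifitm3 (2.504) and Oas3 (2.43) were also called higher, whereas Ifit1 (-0.85), Gbp2 (-0.02), Stat2 (0.22), Irgm1 (1.08) and Bst2 (1.19) were not called. With the compared groups fitted alone, 8 members were called higher. Basophil and mast cell markers stood at 5.13 to 5.69 in SatM, with Fcer1a, Ms4a2, Cpa3 and Cd200r3 at the floor, against 16.2 to 16.5 in SMP, and their part in the differences was not tested.

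Whether the mature and the progenitor pair differ was tested directly as a difference of differences, SatM minus inflammatory monocytes less SMP minus cMoP. This was called below 0 for 18 members and above 0 for 2, where 11.1% of all genes were called below 0 and 11.1% above. Rsad2 had a value of -8.04 (SE 0.95, adjusted p = 6.07e-05), since it fell in SatM and rose in SMP. Ifit1 (-6.90), Ddx58 (-6.73), Lgals3bp (-5.99) and Isg20 (-5.86) were likewise opposite in sign in the 2 pairs. Ifit1bl1 (-5.70), Oasl1 (-4.09), Ifi213 (-3.52), Oas2 (-2.96) and Ifi47 (-2.501) fell in SatM, with progenitor differences that were not called. For Ifit1bl1 and Mx2, at the floor in all 8 progenitor arrays, and for Oasl1, at 2.30 to 2.51 there, the progenitor pair could show little, and the value restates the fall in SatM. The 2 above 0 were Gbp3 (2.60), which fell more in SMP, and Ifitm3 (1.5002). Oasl2, Stat2, Slfn4, Irgm1, Slfn1, Ifih1, Bst2 and Mx1 were not called.

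**Figure D3:**
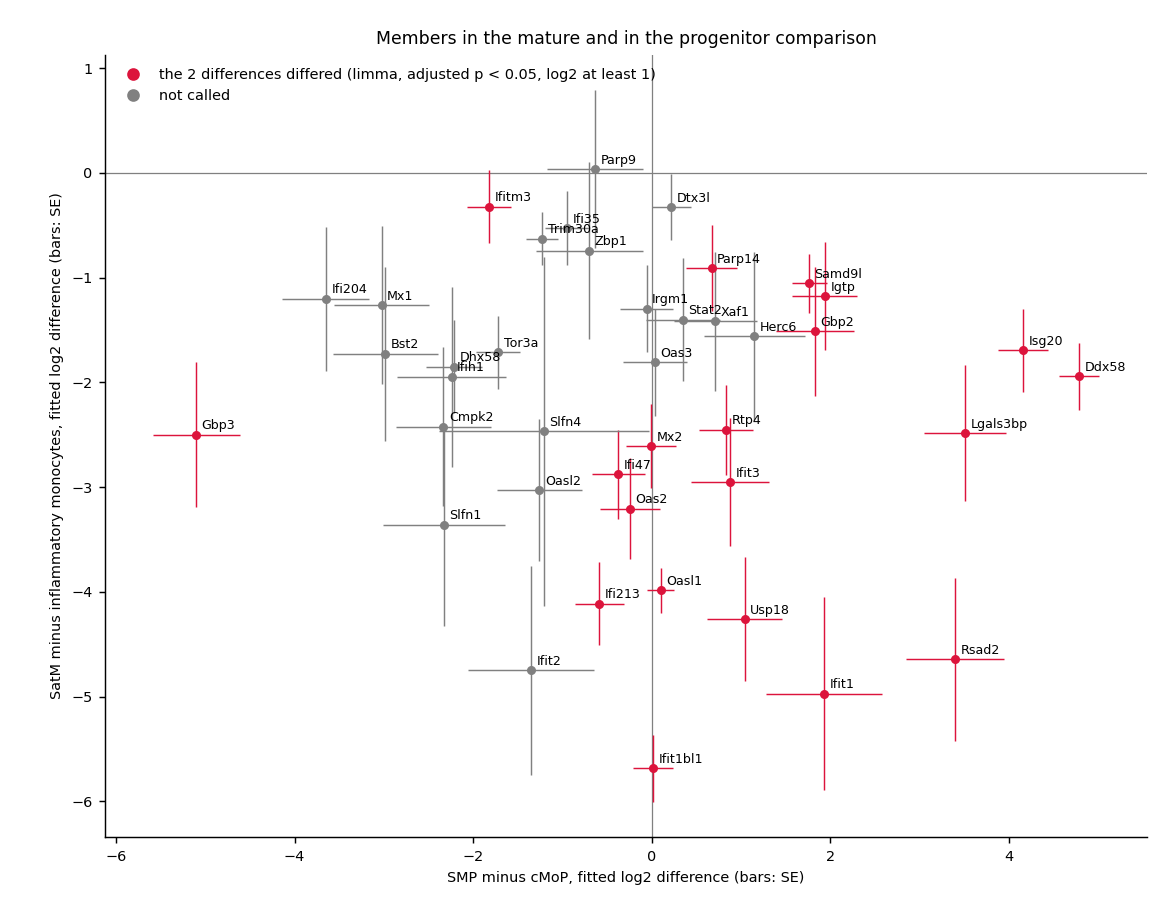
Fitted log2 difference of each of the 41 members between SatM and inflammatory monocytes (vertical) and between SMP and cMoP (horizontal), with SE bars; red points are the 20 members whose 2 differences differed by the limma test. On the vertical axis 40 of the 41 points lie below 0, while they spread from -5.10 for Gbp3 to 4.79 for Ddx58 on the horizontal axis.

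The WT-titled arrays of cMoP and SMP read lower for many members than the numbered arrays of the same cell types. In the joint term 16 members were lower and 0 higher, where 10.1% of all genes were lower and 2.34% higher. The member median was -1.01 against -0.14 over all genes. Xaf1, which binds the apoptosis inhibitor Xiap, was at 7.13, 7.43, 7.73 and 6.62 in the numbered arrays and at 2.44, 4.04, 4.07 and 5.46 in the WT-titled ones (-3.22, SE 0.47, adjusted p = 0.0010). Igtp fell from 7.27, 7.70, 8.06 and 9.93 to 3.82, 4.57, 6.67 and 6.46 (-2.86, SE 0.36, adjusted p = 0.00046), and Usp18 from 6.92, 7.07, 7.24 and 7.60 to 3.32, 4.07, 5.33 and 5.36 (-2.69, SE 0.42, adjusted p = 0.0015). In none of these 3 did the sets overlap. Zbp1 (-2.44), Ifih1 (-2.31), Lgals3bp (-2.24), Rsad2 (-2.23), Slfn1 (-2.19), Irgm1 (-1.74), Oasl2 (-1.74) and Ifitm3 (-1.37) were among the others. Mx1 (-1.08), Ifit1 (-1.01), Ddx58 (-0.60), Gbp2 (-0.57), Ifit3 (-0.54), Stat2 (-0.25), Bst2 (-1.78) and Slfn4 (2.09) were not called. Within cMoP 38 of the 41 members had a lower mean in the WT-titled pair, with a median of -1.41, and within SMP 34, with a median of -0.83. Whether the shift differs between cMoP and SMP was not tested. The chemokine gene Cxcl10, often counted with this response but not a member, went the other way in cMoP, from 5.32 and 5.10 to 8.98 and 10.69. With these 8 arrays fitted alone, 6 members were called lower. Of the 16 calls, only those of Ifitm3, Igtp, Isg20 and Usp18 held under every alternative run, and that of Xaf1 did not. Macrophage markers had a summed level of 5.45 to 6.43 in the WT-titled arrays and of 7.14 to 8.35 in the numbered ones. C1qa, Mertk and Siglec1 were at the floor in both sets, and Marco was too apart from 2.54 in SMP 2. In SMP, eosinophil markers stood at 8.89 to 9.44 against 11.04 to 11.6 and neutrophil markers at 12.07 to 14.6 against 12.6 to 12.8. The part of these in the shift was not tested. What sets the WT-titled arrays apart is not given in the labels.

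Neutrophils of the spleen held the members far above the other granulocytes of that organ. Against eosinophils, 29 members were higher and 1 lower, where 17.4% of all genes were higher and 23.1% lower. The median was 2.96 against -0.02 over all genes. All 12 RNA binding and nucleotide antivirals rose, as did 5 of 6 RNA sensors and signalling genes. Slfn1 read 13.13 and 13.11 in neutrophils and 4.39 and 5.31 in eosinophils (8.27, SE 0.96, adjusted p = 2.06e-05). Oas3 read 9.95 and 9.72 against 2.50 and 3.46 (6.85, SE 0.51, adjusted p = 4.62e-07), and Ifit1 9.37 and 8.90 against 2.81 and 2.32 (6.57, SE 0.92, adjusted p = 9.15e-05). The groups stood clear of each other for all 3. Ifit3 (6.01), Ifit1bl1 (5.94), Ifi204 (5.68), Ifitm3 (5.22), Slfn4 (5.22), Rtp4 (4.89) and Isg20 (4.75) complete the 10 largest, and Oasl2 (4.65), Rsad2 (3.72), Usp18 (3.24), Gbp2 (3.01), Ifih1 (2.64), Stat2 (2.05), Ddx58 (1.28) and Irgm1 (1.18) were higher too. Bst2 was the member that fell, at 3.30 and 2.48 in neutrophils against 5.16 and 6.73 in eosinophils (-3.05, SE 0.83, adjusted p = 0.0092). Mx1 was close to the floor in both, at 2.30 to 2.56, and Mx2 at it. The eosinophil arrays held 5 of 6 neutrophil markers at a summed level of 15.1 to 15.2, with Cxcr2 at the floor. They held stem and progenitor markers at a summed level of 13.2 to 13.3, against 5.86 to 8.06 in neutrophils. Of these, Flt3 was at the floor in eosinophils 1 and read 2.73 in eosinophils 2. The part of either in the members' values was not tested.

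Against basophils, 24 members were higher in neutrophils and 1 lower, where 15.6% of all genes were higher and 21.9% lower. The median was 1.66 against -0.01. Oasl2 read 10.98 and 11.05 in neutrophils and 3.59 and 3.25 in basophils (7.60, SE 0.68, adjusted p = 2.06e-06). Slfn1 (6.14), Oas3 (6.04), Ifit1bl1 (5.66), Ifit1 (5.62), Ifi204 (5.18), Ifit3 (5.13), Rtp4 (5.07), Oas2 (4.66) and Dhx58 (4.62) came next. Ifih1 (3.37), Rsad2 (3.07), Usp18 (2.36), Ifitm3 (2.17), Ddx58 (1.66) and Irgm1 (1.31) were higher as well. Lgals3bp was lower, at 4.73 and 4.86 against 9.15 and 9.48 (-4.52, SE 0.65, adjusted p = 0.00012). Slfn4, the Schlafen gene that peaks in neutrophils at 14.32 and 14.33, read 11.51 and 10.66 in basophils and was not called (3.24, SE 1.67, adjusted p = 0.15). Mx1 (-1.76), Bst2 (-1.70), Gbp2 (1.28) and Stat2 (0.12) were not called either. The basophil arrays held all 6 measured neutrophil markers at a summed level of 15.95 to 16.3, against 16.8 to 16.9 in neutrophils. Their stem and progenitor markers had a summed level of 12.6 to 13.4, against 5.86 to 8.06. Most of that sum was Mpo, at 12.50 and 13.31, while Kit read 2.56 and 2.82. Flt3 was at the floor in basophils 1 and read 2.51 in basophils 2. The part of either in the members' values was not tested.

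Compared with basophils, eosinophils had 2 members higher (4.88%) and 6 lower (14.6%), where 9.36% of all genes were higher and 11.3% lower, so the shares lie near the background. Lgals3bp (-5.37), Isg20 (-3.54), Ifitm3 (-3.05), Stat2 (-1.92), Dtx3l (-1.55) and Trim30a (-1.21) were lower in eosinophils. Ifitm3 read 8.56 and 8.49 in eosinophils against 12.10 and 11.07 in basophils. Oasl2 (2.95) and Dhx58 (1.39) were higher. Slfn1 (-2.12), Slfn4 (-1.99), Mx1 (-1.79), Gbp2 (-1.73), Bst2 (1.35), Ifit1 (-0.95), Ifit3 (-0.88), Usp18 (-0.88), Ifih1 (0.73), Rsad2 (-0.65), Ddx58 (0.38) and Irgm1 (0.13) were not called.

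Neutrophils and inflammatory monocytes, both among the 8 highest places by the members' median, differed in which members they held. Because neutrophils came from spleen and these monocytes from bone marrow, cell type and tissue cannot be told apart here. In neutrophils 17 members were lower and 3 higher, where 19.9% of all genes were lower and 13.2% higher. The median was -0.95 against 0.00. Mx1 read 2.37 and 2.56 in neutrophils and 10.81 and 10.96 in inflammatory monocytes (-8.42, SE 0.75, adjusted p = 2.25e-06). Ifi213 read 2.78 and 2.56 against 9.09 and 9.43 (-6.59, SE 0.39, adjusted p = 5.25e-08), and Gbp3 4.61 and 2.84 against 9.19 and 9.62 (-5.68, SE 0.69, adjusted p = 3.23e-05). Mx1 and Ifi213 thus lay close to the floor in neutrophils, and the arrays did not overlap for any of these 3. Lgals3bp (-4.73), Bst2 (-4.51), Ifi47 (-3.56), Tor3a (-3.11), Xaf1 (-2.86), Ifit2 (-2.72) and Mx2 (at least 6.10-fold lower) fell too, as did Stat2 (-1.91), Usp18 (-1.69) and Irgm1 (-1.52). By role, 5 of 7 GTPases were lower and 2 of 12 RNA binding and nucleotide antivirals.

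Ddx58 (1.07), Samd9l (1.19), a brake on translation, and Oas3 (1.58) were higher in neutrophils. Oas3 read 9.95 and 9.72 against 8.25 and 8.24. Slfn4 (2.45, SE 1.67) and Slfn1 (1.45) were not called, and neither were Ifit3 (-1.28), Ifih1 (-0.95), Gbp2 (-0.80), Ifitm3 (-0.69), Ifit1 (-0.36), Rsad2 (0.54) and Oasl2 (0.65). For Ifit1 the 95% interval of the difference ran from -2.36 to 1.64 and so spans 0. Leaving out any 1 of the 4 arrays left 9 to 11 members lower and the fit without the WT term 10, while Bst2, Gbp3, Ifi213, Ifi47, Lgals3bp, Mx1 and Tor3a were lower under every alternative run.

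**Figure D4:**
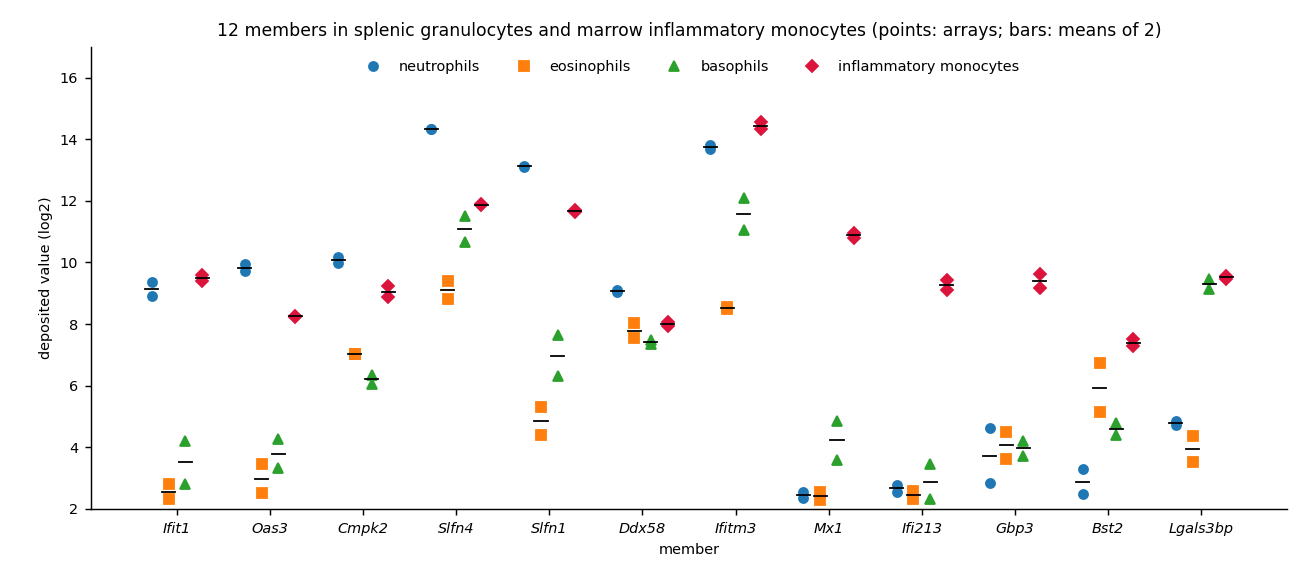
Deposited log2 values of 12 members in neutrophils, eosinophils and basophils of spleen and in inflammatory monocytes of bone marrow, 2 arrays each (points; bars are means). Neutrophils are level with or above the monocytes for Ifit1, Oas3, Cmpk2, Slfn4, Slfn1 and Ddx58 and lie between 2.37 and 4.86 for Mx1, Ifi213, Gbp3, Bst2 and Lgals3bp.

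In the tissue panel each cell type has 1 array per tissue apart from lung macrophages, so the spread in the tests is around additive terms of cell type and tissue. Compared with the Msr1-negative Ceacam1-negative cells, SatM had 5 members higher and 3 lower, where 4.94% of all genes were higher and 5.28% lower, and the median was 0.15 against -0.06 over all genes. Slfn4 read 10.94 in spleen, 11.47 in bone marrow, 11.47 in blood and 11.82 in lung SatM. In the negative cells it read 2.57 in spleen, 4.99 in bone marrow and 2.57 in blood (8.06, SE 0.66, adjusted p = 0.00038). Ifi204 read 9.79, 9.50, 10.36 and 9.47 in SatM of those tissues and 3.69, 4.38 and 2.86 in the negative cells (5.93, SE 0.64, adjusted p = 0.0015). No array of either gene overlapped between the cell types. Slfn1 (4.39, SE 1.03), Oas3 (2.88, SE 0.62) and Cmpk2 (2.46, SE 0.38) were higher too. Ifi47 (-2.27), Ddx58 (-1.81) and Samd9l (-1.24) were lower in SatM. Ifitm3 was at the floor in negative cells of blood, at 7.29 in those of bone marrow and at 12.14 in those of spleen, against 12.09 to 13.85 in SatM, and was not called (6.00, SE 1.95, adjusted p = 0.094). The negative cells also held Ifng, the gene of interferon-gamma, at 10.28, 12.13 and 11.03, against the floor in SatM, beside the NK cell markers given above, and the part of NK cells in these differences was not tested. The SatM arrays held neutrophil markers at a summed level of 9.59 to 16.7 and the negative cells at 5.17 to 11.95, and the part of these was not tested either. The count of members higher was 3 without the filter on low values, and 3 without SatM of bone marrow or of blood, or without the negative cells of either tissue.

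SatM read below the other Ly6C-negative cells in 41 of 41 fitted differences, but no member was called. The median was -1.58 against -0.06 over all genes, and over all genes the calls came to 0.00852% higher and 0.0597% lower. At an unadjusted p under 0.05, limma had 16 members and 907 of all genes. Usp18 read 9.34 in blood and 8.05 in spleen of the other cells and 5.05 and 4.31 in SatM of those tissues, with a difference of -3.99 (95% interval -7.20 to -0.77, adjusted p = 0.55). Ifit1 read 7.48 and 6.76 against 2.997 and 3.69 (-3.30, interval -6.36 to -0.25). Mx2 (-2.22, interval -3.12 to -1.33) and Ddx58 (-1.42, interval -2.19 to -0.64) had narrower intervals, and Rsad2 (-2.26, interval -4.80 to 0.27) spanned 0. Adjusted over all genes none of these passed. The other Ly6C-negative cells held all 5 measured classical monocyte markers at a summed level of 15.0 to 15.3, against 14.0 to 14.8 in panel SatM. The part of this in the members' values was not tested.

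Against the dull cells, 0 members were called, with a median of 1.13 against -0.02 and 0.153% of all genes higher and 0.102% lower. At an unadjusted p under 0.05, limma had 8 of 41 members and 2281 of 11734 genes. The 2 dull arrays stood far apart. Bone marrow read 2.32 for Ifit1, 2.30 for Mx1, 2.30 for Usp18 and 2.47 for Xaf1, while lung read 9.01, 11.68, 9.79 and 9.26. The count of 0 did not hold without the lung array of either cell type. The share of all genes called in those runs is not given here, so no count of members is read from them. The 2 dull arrays held neutrophil markers at summed levels of 16.4 in bone marrow and 8.24 in lung, and the part of this was not tested.

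M2-like macrophages had 3 members higher than SatM (7.32%) and 1 lower (2.44%), where 5.39% of all genes were higher and 2.92% lower. Those shares lie near the background, and 0 of the 4 calls held under every alternative run. The median was 0.91 against 0.03 over all genes. Lgals3bp read 10.80 and 9.14 in macrophages of bone marrow and spleen (3.90, SE 0.60, adjusted p = 0.0078), against 6.22 to 9.47 in SatM. Tor3a (2.48, adjusted p = 0.0055) and Ddx58 (1.52, adjusted p = 0.029) were higher as well. Slfn4 was lower, at 6.75 and 6.87 (-4.84, SE 0.76, adjusted p = 0.0089). Ifit3 (3.58, SE 1.30), Slfn1 (-3.74), Ifitm3 (-3.28) and Rsad2 (1.54) were not called. Without the bone marrow macrophage array, or without the tissue term, 0 members were called higher. Neutrophil markers stood at 7.59 in macrophages of spleen and 13.8 in those of bone marrow, with Cxcr2 at the floor, against 15.1 and 16.7 in SatM of these tissues. The 7 macrophage markers had a summed level of 15.9 to 16.2 in the macrophages, against 9.71 to 14.4 in SatM. The part of these in the differences was not tested.

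Across tissues, the fitted difference of lung from bone marrow was called higher in 11 members and lower in 1, where 6.25% of all genes were higher and 3.05% lower. Only SatM and the dull cells have arrays in both of these tissues, so the difference rests mainly on them. Lung macrophages have arrays in lung alone, and the M2-like and negative cells have none there. The median was 1.99 against 0.07. Usp18 (5.77, SE 1.39, adjusted p = 0.041), Ifit1bl1 (3.76), Lgals3bp (3.62), Stat2 (3.10), Rtp4 (2.93), Parp9 (2.68), Tor3a (2.12), Trim30a (1.70), Dtx3l (1.57), Ddx58 (1.40) and Samd9l (1.26) were higher and Cmpk2 (-1.74) lower. Mx1 (5.05), Ifit1 (4.82), Ifit3 (3.95), Oasl2 (3.91) and Slfn1 (3.49) had large differences that were not called. Without either dull array 0 members were called. Without lung SatM 19 were called higher, without the filter on low values 3, without bone marrow SatM 2, without either lung macrophage array 4, and without the M2-like or the negative cells of bone marrow 6. The shares of all genes called in these runs are not given here, so these counts have no background beside them. Stem and progenitor markers stood at 7.38 to 14.9 in the bone marrow arrays and at 5.29 to 10.9 in those of lung, with Elane at the floor in lung, and neutrophil markers at 11.95 to 16.7 against 8.24 to 11.4. The part of these in the tissue difference was not tested. Blood and spleen did not differ from bone marrow by call in any member. For blood the median was 0.84 with 0.0256% of all genes called higher and 0.0767% lower, and for spleen 0.40 with 0.0256% higher and 0.0682% lower. At an unadjusted p under 0.05, limma had 7 of 41 members and 1955 of 11734 genes for blood. For spleen it had 0 members and 1690 genes.

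**Figure D5:**
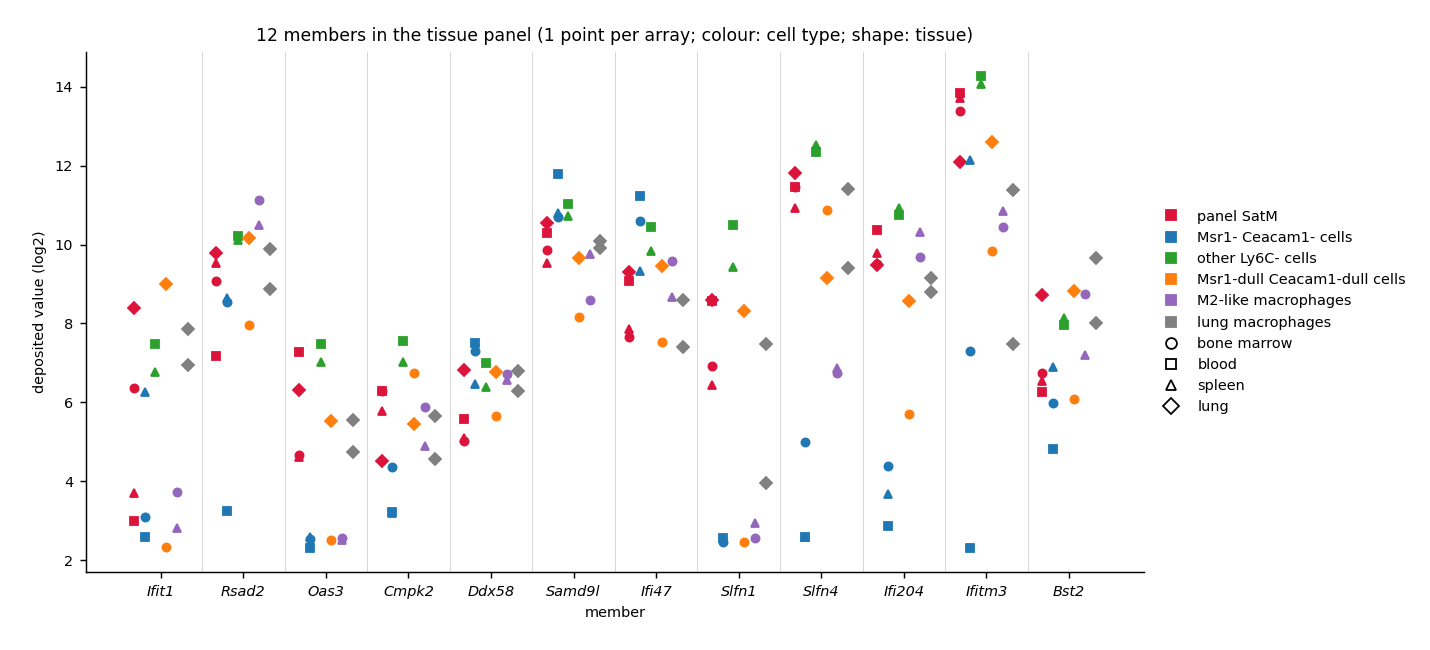
Deposited log2 values of 12 members on the 15 arrays of the tissue panel, 1 point per array, coloured by cell type with the shape giving the tissue. Slfn4 and Ifi204 separate SatM from the Msr1-negative Ceacam1-negative cells in spleen, bone marrow and blood, the other Ly6C-negative cells lie above SatM of blood and spleen for most genes, and the dull cells of bone marrow and lung lie apart for Ifit1 and Slfn1.

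Genes of the pathway that are no members were read in lists. Of 16 listed ligands 8 were measured. Ifnb1, the gene of interferon-beta, was at the floor on all 20 arrays outside the panel, and so was Ifna2. Ifnz, a further gene of the type I family and the 1 ligand that passed the filter on low values there, was not at the floor throughout. It read 4.95, 4.31, 7.73 and 5.96 in SMP and 2.59, 3.67, 3.96 and 4.86 in cMoP, so the arrays overlapped, and was called higher in SMP (1.97, SE 0.44, adjusted p = 0.0028). It was also called higher in the WT-titled arrays (1.74), and lower in SatM than in SMP (-2.12) and in neutrophils than in basophils (-2.46). In the panel Ifnb1 reached 8.33 in other Ly6C-negative cells of spleen and 4.40 in SatM of bone marrow, with 1 array each. Compared with basophils, 6 of 6 receptor genes were higher in neutrophils, where 15.6% of all genes were called higher. Compared with eosinophils 5 of 6 were higher, where the share of all genes was 17.4%. Ifnlr1, a chain of the interferon-lambda receptor, read 9.43 and 9.30 in neutrophils and at most 2.90 in the other cells outside the panel. Between SatM and inflammatory monocytes 0 of 6 receptor genes were called either way by limma, where 6.47% of all genes were lower and 2.87% higher. Ifnar1 read 8.74 and 8.79 in inflammatory monocytes and 8.75 and 8.81 in SatM.

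Among 10 tested kinases and transcription factors, Irf9 (-1.14, adjusted p = 0.0084) and Tyk2 (-1.13) were lower in SatM than in inflammatory monocytes and 0 were higher. Over all genes 6.47% were lower in that comparison and 2.87% higher. Irf7, which amplifies interferon production, read 8.59 and 8.73 in inflammatory monocytes, 7.06 and 7.35 in SatM, 5.13 and 5.34 in cMoP and 3.33 and 2.86 in cMoP WT. It was higher in inflammatory monocytes than in cMoP (4.06, SE 0.55, adjusted p = 0.00023). Irf8, a factor of monocyte development, fell by 7.71 in SMP against cMoP. Among 11 tested nucleic acid sensing genes, 7 were lower in neutrophils than in inflammatory monocytes and 0 higher, where 19.9% of all genes were lower and 13.2% higher. The 7 include Mavs (-3.71), the adaptor of Ddx58 and Ifih1, and Sting1 (-4.48), the adaptor of the DNA sensor Cgas. In SatM, Mavs (-2.56) and Ikbke (-3.03), a kinase of the interferon-inducing cascade, were lower than in inflammatory monocytes. Of 7 tested interferon-gamma targets, Cxcl9 and Cxcl10 were lower in SatM than in inflammatory monocytes and Cd274, the ligand PD-L1, was higher, at 12.11 and 12.02 against 7.17 and 7.64 (4.66, adjusted p = 8.87e-05). Of 8 tested negative regulators 0 were called in that comparison and Socs3 was higher in neutrophils than in eosinophils (7.15).

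The genes outside the list whose values ran most like the mean of the members over the 35 arrays were Irf7 (Pearson r = 0.888), Sirpb1a (0.861), Parp12 (0.854), Oas1a (0.851), Stard3 (0.849), Irf9 (0.837), Ifi27l2a (0.836), Wfdc18 (0.831), Apobec1 (0.828) and Kctd21 (0.827), among 12828 genes. The members' own correlation with the mean of the rest ran from 0.318 for Bst2 to 0.902 for Rtp4, with Ifit3 at 0.897, Oas2 at 0.885 and Oasl2 at 0.877 near the top and Cmpk2 at 0.344, Gbp3 at 0.368, Lgals3bp at 0.373 and Ddx58 at 0.380 near the low end. These values describe arrays that share cell types and a common normalisation. Over the 820 pairs of members, r had a median of 0.494 and ran from -0.421 to 0.943.

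Some members lie side by side in the genome. With at most 3 protein-coding genes between neighbours, 8 clusters held 19 of the 39 members found as protein-coding genes in the reference table. The 15 pairs within clusters had a median r of 0.711. The Ifit cluster of chromosome 19 (Ifit1, Ifit2, Ifit3 and Ifit1bl1) ran from 0.502 for Ifit1 with Ifit2 to 0.808 for Ifit1 with Ifit1bl1. On chromosome 16, Dtx3l stood at 0.711 with Parp14 and at 0.713 with Parp9, and Oas2 with Oas3 on chromosome 5 stood at 0.850. Slfn1 with Slfn4 stood at 0.786. Rsad2 with Cmpk2 stood at 0.245 and Gbp2 with Gbp3 at -0.002, so that these neighbours did not run together over the arrays.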

How the data were processed

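The deposited values of 35 arrays (45101 probe sets) were used as the authors gave them. The authors deposited normalised values, taken here as log2 from their range, and the normalisation method and base of the logarithm are not given in the sources used here. A platform annotation gave 34945 probe sets 1 gene symbol, 932 several and 9160 none, and 34741 were matched to RefSeq. For each of 18193 genes the probe set of highest mean was kept.

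The arrays outside the panel were fitted in limma 3.58.1 (R 4.3.3) by cell type with a term for the WT-titled set, and the panel by cell type and tissue, with trended eBayes. Differences of SatM and inflammatory monocytes from the progenitors, and those of the panel, are fitted values and need not equal differences of means. Genes over the array's median on at least 2 arrays of a model were tested, with Benjamini-Hochberg adjustment over all of them. A fold given as "at least" is the difference of plain means from a group at the floor. The fit was tested on simulated data. Tables and plots were made in Python 3.11.15.

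The members, roles, pathway and marker lists were chosen with earlier results of these data known. Per comparison the text names up to 10 called members in each direction and 17 fixed members wherever groups are described, of which Isg15 could not be measured. Other named genes are examples of a list or chosen after their values were seen. Summed marker levels are log2 of the sum of unlogged values. Numbers in titles were not taken to pair arrays.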

Additional observations from a re-analysis of the deposited data

Results flagged for a closer look

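In the panel, 2 member values stood apart from the other 3 SatM arrays by Dixon's test, among 42 sets of values tested, of which chance sets apart about 1 in 20. Mx2 read 2.61 in SatM of blood and 2.30, the floor, in the other 3. With 3 equal values the test sets apart any other value, so this flag does not show an outlying array. The rate of 1 in 20 does not hold for such ties. Zbp1 read 7.64 in SatM of bone marrow, below the other tissues. The 4 arrays come from 4 tissues, so tissue and array cannot be told apart.

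The difference between SatM and inflammatory monocytes differed from that between SMP and cMoP, by the limma test of the difference itself, in 20 members. Below 0 were Rsad2 (-8.04), Ifit1 (-6.9), Ddx58 (-6.73), Lgals3bp (-5.99), Isg20 (-5.86), Ifit1bl1 (-5.7), Usp18 (-5.3), Oasl1 (-4.09), Ifit3 (-3.83), Ifi213 (-3.52), Gbp2 (-3.34), Rtp4 (-3.28), Igtp (-3.12), Oas2 (-2.96), Samd9l (-2.82), Mx2 (-2.6), Ifi47 (-2.5) and Parp14 (-1.58). Above 0 were Ifitm3 (1.5) and Gbp3 (2.6). All values are log2 differences of differences.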

How the results depend on the processing

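Members called in the main fit gave 3155 values under the alternatives. Of these, 2690 kept their direction and side of the threshold, 465 kept only the direction and 0 reversed. Members not called were left out and most arrays were shared between runs, so a reversal was unlikely from the start. Without the term for the WT-titled set, 12 members were lower in SatM than in inflammatory monocytes and 10 lower in neutrophils than in inflammatory monocytes. With only the compared groups in the fit, 8 were higher in SatM than in SMP and 6 lower in the WT-titled arrays. In the WT-titled arrays alone 4 were lower in SMP. Without the filter on low values, 3 were higher in panel SatM than in the Msr1-negative Ceacam1-negative cells and 3 in lung than in bone marrow. Without the tissue term 0 were higher in M2-like macrophages. The cause of these shifts was not tested. With 1 array left out at a time, the counts ran from 11 to 14 for SatM against inflammatory monocytes, 9 to 11 for neutrophils against inflammatory monocytes, 10 to 14 for SMP against cMoP, 12 to 19 for SatM against SMP, 25 to 32 for inflammatory monocytes against cMoP, 23 to 25 for neutrophils against eosinophils, 17 to 24 against basophils, 5 to 6 for eosinophils against basophils, 12 to 21 for the WT-titled set and 17 to 20 for the difference of differences. In the panel they ran from 3 to 7 against the negative cells, 0 to 11 against the dull cells, 0 to 3 for M2-like macrophages and 0 to 19 for lung, and were 0 throughout against the other Ly6C-negative cells, for blood and for spleen. Where 1 array of a group is left, it is assumed to vary like the other groups. These are counts of members alone, with no share of all genes beside them.

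With the replicate number as a block, 21 members were lower in SatM than in inflammatory monocytes and 11 lower in SMP than in cMoP, and no count moved by over 1.5 times. A block of 4 pairs on the SMP and cMoP arrays alone, chosen after seeing the data, left 8 lower. Deviations of same-numbered arrays correlated at -0.045 for SatM and inflammatory monocytes and at 0.233 at most, so the numbers were not taken as pairs. Adding the panel's SatM array of bone marrow, also chosen after seeing the data, gave 23 members lower than in inflammatory monocytes. Members at or near the floor have only bounds, and with few arrays per group the precision is limited.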
